A study of Mus musculus with 8 samples.

Results

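The genes described here are those of glutathione metabolism and antioxidant defence: enzymes that make, use and recycle glutathione, the thioredoxin and peroxiredoxin enzymes, superoxide dismutases and catalase, heme oxygenases, and the transcription factor gene Nfe2l2 with its inhibitor Keap1. They were taken by symbol from a fixed list of 38 names. All 38 had a row among the 24060 gene rows of the deposited files, and all 38 passed the filter on low values. The libraries come from cortices of 4 young adult mice (postnatal day 80, males and females, with no sex given per animal) of the genotype Aldh1l1-creERT2 hemi, Ribotag het. In these mice the regulatory sequence of the astrocyte gene Aldh1l1 drives an inducible Cre recombinase, and recombined cells put a hemagglutinin (HA) tag on the ribosomal protein Rpl22. Each animal gave an input library from the cleared lysate of all cortical cells, astrocytes included, and an HA IP library of RNA precipitated with the tagged ribosomes, so that there were 4 libraries of either kind and both kinds carried the same alleles. Animals are named by the numbers 579, 580, 581 and 595. Precipitates from untagged animals were not analysed here. The difference between HA IP and input holds both the cell types that carry the tag and the loading of each transcript on ribosomes, and these cannot be told apart.

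Glutathione is a tripeptide of glutamate, cysteine and glycine that is made in the cytosol by glutamate-cysteine ligase and glutathione synthetase. Peroxidases and transferases use it to remove peroxides and to conjugate electrophiles, and glutathione reductase restores it with NADPH. In brain, astrocytes are known for a high glutathione content and for releasing it as a source of precursors for neurons. The factor NRF2, encoded by Nfe2l2, is held in check by KEAP1 and, once released, drives many of these genes through the antioxidant response element.

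The libraries held 33834388 to 53625125 fragments. Aldh1l1 had 370 to 433 FPKM (fragments scaled to gene length and to library size) in the 4 HA IP libraries and 20.7 to 23.0 in the inputs. All 14 astrocyte markers checked were higher in HA IP (median log2 fold change 4.56), and all 10 neuronal, 10 microglial and 8 endothelial markers were lower. The summed FPKM of the neuronal markers was 88.6 to 114 in HA IP against 2313 to 2534 in input, and that of the microglial markers 27.7 to 35.8 and 193 to 203. No neuronal or microglial marker was at 0 in HA IP. Of 9 oligodendrocyte markers 8 fell and Cnp rose. Of 6 precursor markers 4 fell, while Olig1 and Olig2 rose, and their summed FPKM was 127 to 235 in HA IP against 64.7 to 72.4 in input. Of 7 mural cell markers 1 rose (Pdgfrb, 2.38), 3 fell and 3 did not pass, and of 6 fibroblast markers 2 rose (Pdgfrl, 2.51, and Col1a2, 1.37), 3 fell and 1 did not pass. Of the blood cell list 2 of 6 markers reached the filter, and Alas2 rose while the other fell. Of 5 ependyma and choroid plexus markers 4 reached it, with Foxj1 and Ttr higher and the other 2 lower.

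Some HA IP libraries stood apart in these markers. Vtn, of mural cells, had 29.2 and 38.8 FPKM in HA IP of animals 580 and 595 against 9.43 and 7.84 FPKM in those of 579 and 581, and Dcn, of fibroblasts, 1.91 and 3.78 against 0.849 and 0.942 FPKM. Summed mural markers ran from 14.9 to 47.2 FPKM in HA IP and from 41.0 to 52.7 FPKM in input. Animal 581 was high in the astrocyte marker Gfap, at 1076 FPKM in HA IP against 310 to 450 and at 66.1 FPKM in input against 21.3 to 26.8, and its HA IP library was high in Olig2, at 68.6 FPKM against 19.7 to 27.2. The part of these cell types and libraries in the results below was not tested.

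Of the 38 genes, 34 were higher in HA IP, 1 was lower and 3 did not pass the test (limma without an animal block, adjusted p under 0.05). Among all 15605 genes tested, 42.1% were called higher and 41.1% lower. The median log2 fold change was 1.83 over the 38 genes and 0.014 over all genes tested, and 30 of the 38 were at least 2-fold higher, against 25.6% of all genes tested. Fold changes are given after scaling by trimmed mean of M-values (TMM), which added about 0.84 to the log2 ratio between HA IP and input, and less for genes of low FPKM because of the pseudocount of 0.1. On the deposited FPKM scale 30 of the 38 were higher and 7 lower, where the background was 23.3% and 61.6%. On that scale the values of the groups did not overlap for 30 genes with HA IP higher and 6 with HA IP lower (22.0% and 59.0% of all genes tested). After scaling and with animals as a block, 35 of the 38 were higher and 2 lower, against 6727 and 6579 of the 15605 genes. After scaling and with the HA IP libraries of animals 580 and 595 left out together, 34 were higher and 1 lower. Of all 16133 genes then tested, 6491 were higher and 6591 lower. Without animal 581 it was 34 and 2 of the 38, against 6338 and 6533 of 15663 genes. The genes whose direction depends on the scale are Gclc, Gpx4, Txn1, Hmox2 and Keap1, and this is stated at each of them.

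**Figure D1:**
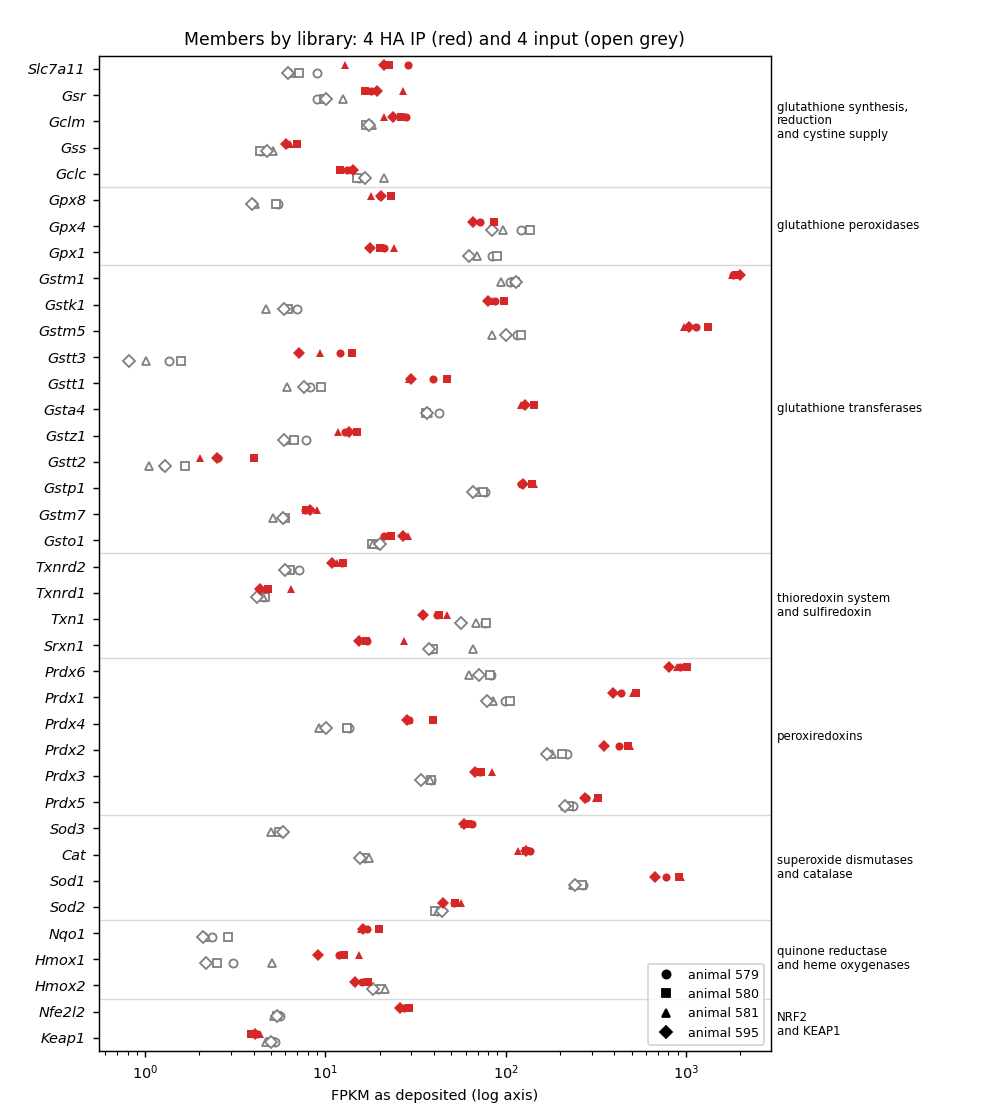
Deposited FPKM (log axis) of the 38 genes in each library, grouped by role; filled red symbols are the 4 HA IP libraries, open grey symbols the 4 inputs, and the symbol shape gives the animal. Gstm1, Gstm5 and Prdx6 in HA IP lie far above their inputs, while Gpx1, Txn1 and Srxn1 lie below theirs.

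**Figure D2:**
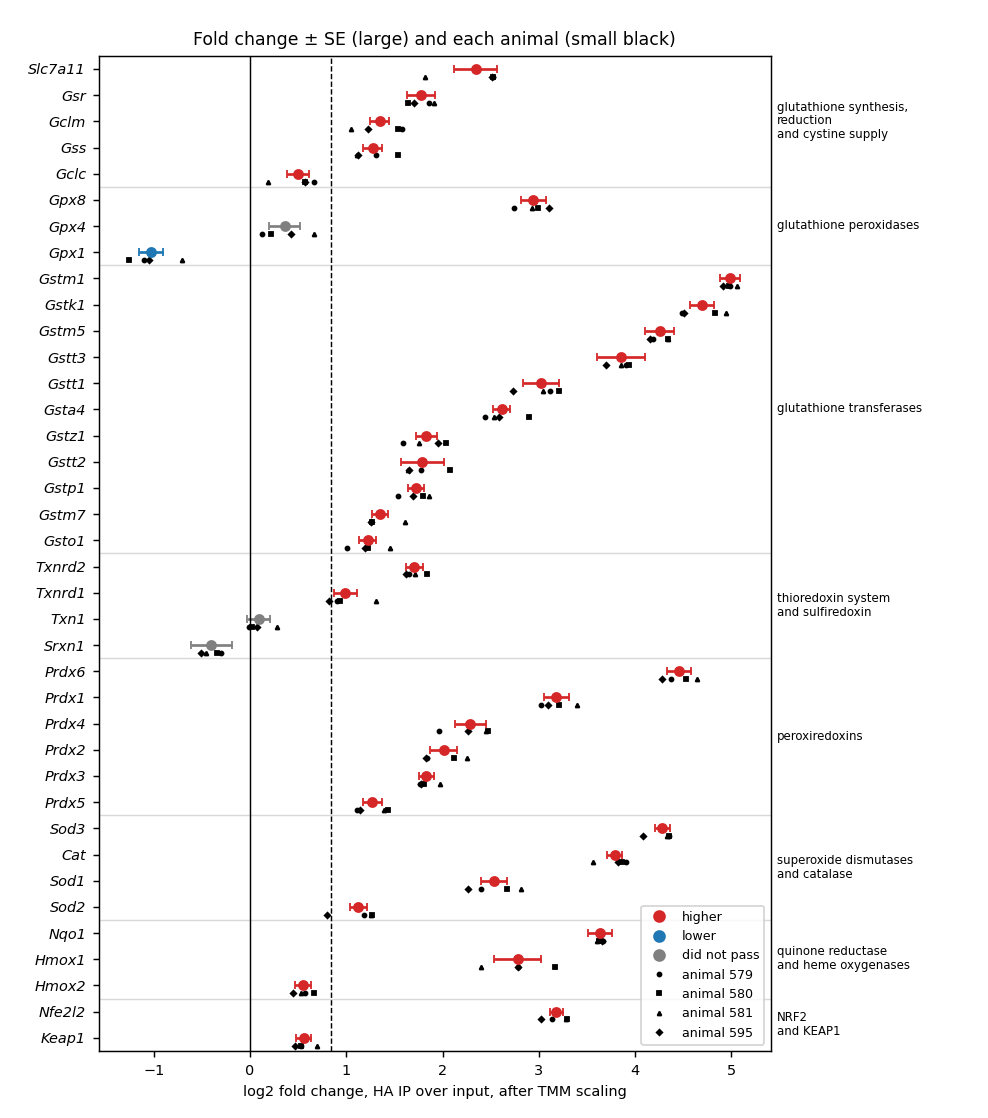
Log2 fold change of HA IP over input after TMM scaling for each gene; large symbols with bars are the limma estimate ± SE (red higher, blue lower, grey not past the test), small black symbols are the single animals, and the dashed line at 0.84 marks the shift between the 2 scales. Gpx1 at -1.03 is the gene called lower.

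The 2 regulators differed from each other. Nfe2l2 (chromosome 2, 75675513 to 75704663 in GRCm38.p6, as for all positions below) had 27.4, 29.1, 29.2 and 26.0 FPKM in HA IP of animals 579, 580, 581 and 595, and 5.60, 5.41, 5.19 and 5.37 FPKM in their inputs. The groups lay far apart and the animals close together. Nfe2l2 rose by a log2 fold change of 3.18 (SE 0.07, adjusted p = 3.2e-10). Keap1, the adaptor that hands NRF2 to a ubiquitin ligase, had 4.19, 3.89, 4.36 and 4.06 FPKM in HA IP and 4.72 to 5.29 FPKM in the inputs. Every HA IP library was thus below every input on the deposited scale (-0.27, adjusted p = 0.0104), whereas after scaling Keap1 was called higher (0.55, SE 0.08, adjusted p = 0.00011). The FPKM of Keap1 rests on a length beyond the gene's span in RefSeq, which cancels in its fold change but not in its level.

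The ratio of 2 genes within a library does not depend on the scaling between libraries. The ratio of Nfe2l2 to Keap1 was 6.42 to 7.47 in HA IP and 1.06 to 1.10 in input, without overlap, and was 6.27-fold higher in HA IP. Such ratios were computed for 9 pairs of related genes, chosen with their values known, and are given as a description with no test. In each pair the numerator was the gene with the larger log2 fold change. That a ratio was higher in HA IP thus follows from this choice, and only its size is read. A ratio between genes depends on the lengths used in the FPKM, so only its change between HA IP and input is read.

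Promoter sequence bears on these genes through the antioxidant response element. Its core, TGACNNNGC, or GCNNNGTCA where it lies on the opposite strand, was searched in the RefSeq windows (GRCm38.p6) from 250 bases before to 50 bases after annotated transcript starts. Of the 38 genes, 31 had at least 1 window. The core occurred in 8 of their 42 windows (19.0%) and in 12.4% of all 32851 windows, and it was found for 8 of the 31 genes (25.8%), against 14% of all 27025 genes with a window. A match is a description of letters in this window and not a site shown to be bound, and elements farther from the start lie outside the window. The stretches are shown for the 7 genes with the core before the start, with the core in capitals and each sequence on the strand of its gene.
Gstm5, chr3:107895796-107895836, plus strand: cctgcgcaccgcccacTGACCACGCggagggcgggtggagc
Prdx1, chr4:116685450-116685490, plus strand: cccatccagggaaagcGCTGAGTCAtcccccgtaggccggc
Nfe2l2, chr2:75704879-75704913, minus strand: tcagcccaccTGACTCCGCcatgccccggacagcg
Sod1, chr16:90220690-90220730, plus strand: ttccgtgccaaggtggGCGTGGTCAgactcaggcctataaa
Gclm, chr3:122245407-122245447, plus strand: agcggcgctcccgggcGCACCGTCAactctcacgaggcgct
Gstm7, chr3:107931719-107931759, minus strand: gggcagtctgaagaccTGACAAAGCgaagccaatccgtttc
Txnrd1, chr10:82859098-82859138, plus strand: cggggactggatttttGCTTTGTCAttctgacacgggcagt
The core began 42 bases before the start in Gstm5, 133 in Prdx1, 240 in Nfe2l2, 56 in Sod1, 134 in Gclm, 129 in Gstm7 and 92 in Txnrd1. These starts are the outermost of the gene in Gstm5, Prdx1, Nfe2l2 and Sod1, but lie inside it in Gclm (by 70 bases), Gstm7 (by 263) and Txnrd1 (by 25255), so that the Gstm7 and Txnrd1 stretches lie within the gene. In Srxn1 it lay 28 bases after the start and is not shown. The log2 fold changes of these 8 genes ran from 4.25 for Gstm5 through 3.18 for Prdx1 and 1.35 for Gclm to -0.40 for Srxn1, which did not pass.

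All 5 genes of glutathione synthesis, reduction and cystine supply were higher in HA IP, but not equally. Slc7a11 encodes the exchanger subunit that brings in cystine, the source of cysteine for glutathione. It had 28.7, 22.5, 12.9 and 21.1 FPKM in HA IP and 9.04, 7.16, 6.42 and 6.25 FPKM in input. The groups did not overlap, although HA IP of animal 581 was the lowest by a wide margin, and the log2 fold change was 2.34 (SE 0.23, adjusted p = 4.5e-06).

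Glutamate-cysteine ligase, which performs the rate-limiting step, has a catalytic subunit encoded by Gclc and a modifier subunit encoded by Gclm. Gclm stood in HA IP at 24.9 ± 2.97 FPKM, against 17.4 ± 0.564 in the inputs (SD, n = 4 each), and rose by 1.35 (SE 0.10). Gclc was at 13.3 ± 0.969 and 17.1 ± 2.90 FPKM. It was called higher after scaling (0.50, SE 0.11, adjusted p = 0.0018) and lower on the deposited scale (-0.34, adjusted p = 0.0177), where every HA IP library lay below every input. The ratio of Gclm to Gclc was 2.13, 2.18, 1.55 and 1.67 in HA IP and 1.12, 1.12, 0.853 and 1.05 in input, in the order of the animals as above. It was 1.81-fold higher in HA IP, without overlap. As for all these pairs, the direction follows from the choice of numerator, and only the size is read.

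Gss, the glutathione synthetase gene that adds glycine, had 6.07, 6.95, 6.38 and 6.09 FPKM in HA IP and 4.41, 4.35, 5.13 and 4.74 FPKM in input, and rose by 1.27 (SE 0.09). Gsr, the reductase gene that restores glutathione with NADPH, had 18.0, 16.7, 26.9 and 19.4 FPKM in HA IP and 9.01, 9.84, 12.6 and 10.1 FPKM in input. Animal 581 was the highest of the 4 in both kinds of library. Gsr rose by 1.78 (SE 0.15, adjusted p = 1.4e-06).

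The 3 glutathione peroxidase genes went in different directions. Gpx1 (chromosome 9, 108339080 to 108340342), the cytosolic selenium-dependent peroxidase gene, had 21.2, 20.2, 24.1 and 17.6 FPKM in HA IP and 83.9, 89.7, 69.8 and 62.7 FPKM in input. Every input was far above every HA IP library. In the comparison without an animal block, Gpx1 was the only one of the 38 genes called lower both after scaling (-1.03, SE 0.13, adjusted p = 3.2e-05) and on the deposited scale (-1.87). Gpx4, the selenium-dependent peroxidase that reduces lipid peroxides in membranes, had 72.0, 85.8, 86.4 and 66.1 FPKM in HA IP and 122, 137, 96.3 and 84.4 FPKM in input, so that the groups overlapped. Its log2 fold change was 0.36 (SE 0.16) and did not pass (adjusted p = 0.0568). With animals as a block it passed as higher (adjusted p = 0.0103), and on the deposited scale it was called lower (-0.49, adjusted p = 0.0154).

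Gpx8, a family member of the endoplasmic reticulum with cysteine in place of selenocysteine, had 20.2, 23.1, 18.0 and 20.3 FPKM in HA IP and 5.44, 5.30, 4.06 and 3.94 FPKM in input. It rose by 2.94 (SE 0.13, adjusted p = 1.3e-08), in all 4 animals by 2.74 to 3.11. The whole of Gpx8 lies within the span of Cdc20b, and whether the counting used strand is not given in the sources used here. The spans of Gstm5, Gstz1, Txnrd1, Txnrd2, Prdx1, Prdx5 and Hmox2 overlap another listed gene in part. The ratio of Gpx8 to Gpx1 was 16.1-fold higher in HA IP and that of Gpx4 to Gpx1 2.62-fold higher, both without overlap. Of the other peroxidase genes with enough fragments, Gpx7, a cysteine-containing relative of Gpx8, rose by 2.28 (SE 0.18) and Gpx3, a secreted selenoprotein, changed by -1.11 (SE 0.30). Gpx3 had 0.999, 1.58, 0.810 and 2.66 FPKM in HA IP, highest in the animals with high Vtn, and stood at -1.68 without HA IP of 580 and 595. Both genes were named after their values were seen.

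All 11 glutathione transferase genes were higher in HA IP on either scale, with log2 fold changes from 1.22 to 4.98. Transferases attach glutathione to electrophiles and differ in substrate class. Gstm1, of the mu class, had 1830, 1910, 1793 and 2001 FPKM in HA IP and 106, 113, 94.7 and 114 FPKM in input. With a log2 fold change of 4.98 (SE 0.11, adjusted p = 2.4e-10), it was the highest of the 38 and lay next to Aldh1l1 at 5.05. Gstk1, the kappa class transferase of mitochondria and peroxisomes, rose by 4.70 (SE 0.13), from 5.93 ± 0.963 to 86.9 ± 7.67 FPKM. Gstm5 rose by 4.25 (SE 0.15), Gstt3 by 3.85 (SE 0.25) and Gstt1 by 3.02 (SE 0.19).

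At the other end stood Gsto1, the omega class enzyme that also reduces dehydroascorbate, at 1.22 (SE 0.09), Gstm7 at 1.35 (SE 0.08), Gstp1 of the pi class at 1.72 (SE 0.08), Gstt2 at 1.79 (SE 0.22) and Gstz1, which acts in tyrosine breakdown, at 1.83 (SE 0.11). Gsta4, which clears the lipid peroxidation product hydroxynonenal, rose by 2.61 (SE 0.09), from 38.1 ± 3.06 to 130 ± 9.89 FPKM. Gstt2 had the fewest fragments of the 38 genes, with 53 in its lowest library.

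The mu and theta transferases are gene clusters, and neighbours within them differed. The 7 mu class genes lie on chromosome 3 between 107895854 and 108045179 (GRCm38.p6). In genome order Gstm5 and Gstm7 were followed by Gstm6 at 3.37 (SE 0.16), Gstm3, which did not reach the filter, Gstm2 at 0.61 (SE 0.43, adjusted p = 0.213), Gstm1, and Gstm4 at 1.41 (SE 0.12). The ratio of Gstm1 to Gstm7 was 200 to 243 in HA IP and 18.2 to 19.5 in input, 12.3-fold higher. Gstm2 had 1.03, 2.93, 0.900 and 4.04 FPKM in HA IP and 1.56 to 2.46 FPKM in input, so that animals 580 and 595 were high as for Vtn and Dcn. It stood at -0.27 (adjusted p = 0.243) without these 2 HA IP libraries and passed as higher without HA IP of 581 (0.93, adjusted p = 0.0434). The 4 theta class genes lie on chromosome 10 between 75774117 and 75837419, in the order Gstt3, Gstt1, Gstt4 and Gstt2, with falling fold changes among the 3 tested. Paralogs in a cluster are alike in sequence, so shared fragments may have been lost or given to a neighbour, which was not tested. Values in these clusters are uncertain for this reason, those of the low members included.

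**Figure D3:**
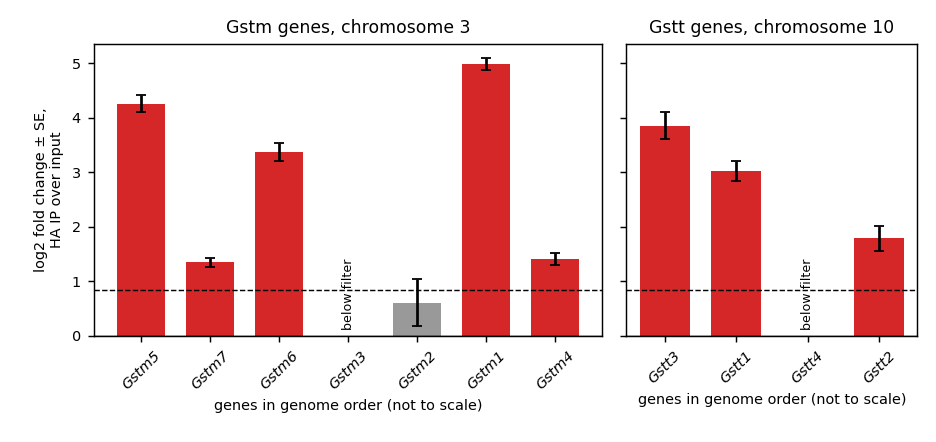
Log2 fold change ± SE (limma, after TMM scaling) of the mu and theta class transferase genes in genome order, not to scale; red bars passed the test, the grey bar did not, and the dashed line at 0.84 marks the shift between the 2 scales. Gstm5, Gstm6 and Gstm1 stand at 3.37 to 4.98, with neighbours at 0.61 to 1.41 between and beside them.

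In the thioredoxin system 2 of 4 genes rose and 2 did not pass. Thioredoxin reduces protein disulfides and is itself reduced by the selenoenzymes thioredoxin reductase 1 in the cytosol and thioredoxin reductase 2 in mitochondria. Txn1, the cytosolic thioredoxin gene, had 41.5, 42.6, 47.5 and 34.7 FPKM in HA IP and 77.1, 78.2, 69.0 and 57.0 FPKM in input. It lay at 0.09 (SE 0.12, adjusted p = 0.519) after scaling and was called lower on the deposited scale (-0.75, adjusted p = 0.00024). Txnrd2 rose by 1.71 (SE 0.09), from 6.43 ± 0.530 to 11.8 ± 0.739 FPKM.

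Txnrd1 had 4.70, 4.83, 6.44 and 4.36 FPKM in HA IP and 4.58, 4.65, 4.53 and 4.19 FPKM in input. HA IP of animals 579, 580 and 581 lay above every input, the first 2 by little, while HA IP of animal 595 lay among the inputs. Txnrd1 rose after scaling (0.99, SE 0.12, adjusted p = 2.7e-05) but not on the deposited scale (0.16, adjusted p = 0.238). The ratio of Txnrd2 to Txnrd1 was 1.64-fold higher in HA IP, without overlap.

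Srxn1 (chromosome 2, 152105524 to 152111376) encodes sulfiredoxin, which repairs over-oxidised peroxiredoxins. It had 17.0, 16.8, 27.2 and 15.4 FPKM in HA IP and 38.5, 39.8, 66.2 and 37.6 FPKM in input, so that animal 581 stood above the other 3 in both kinds of library. Its log2 fold change was -0.40 (SE 0.21) and did not pass (adjusted p = 0.105). Within animals the log2 ratio ran from -0.51 to -0.30, and with animals as a block Srxn1 was called lower (adjusted p = 0.00057). It was also called lower without animal 581 (-0.44, adjusted p = 0.00081), without the HA IP library of that animal alone (-0.59, adjusted p = 0.0174) and with deposited FPKM unscaled (-1.24, adjusted p = 0.0004).

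All 6 peroxiredoxin genes, whose products reduce hydrogen peroxide, were higher in HA IP on either scale. Prdx6 (chromosome 1, 161240112 to 161251210), the family member that uses glutathione in place of thioredoxin and also has a phospholipase activity, had 933, 1016, 895 and 806 FPKM in HA IP and 82.6, 81.7, 63.0 and 71.0 FPKM in input. It rose by 4.46 (SE 0.12, adjusted p = 7.7e-10), the most of the 6, in all 4 animals by 4.28 to 4.65. Prdx1, of the cytosol, rose by 3.18 (SE 0.13), from 92.4 ± 12.2 to 468 ± 62.9 FPKM. Prdx4 of the endoplasmic reticulum rose by 2.29 (SE 0.16), Prdx2 of the cytosol by 2.01 (SE 0.14), Prdx3 of mitochondria by 1.83 (SE 0.08) and Prdx5, found in several compartments, by 1.27 (SE 0.10). Prdx5 was thus close to the scale shift of 0.84, at 0.43 on the deposited scale (adjusted p = 0.00126).

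All 3 superoxide dismutase genes and catalase rose, and the dismutases differed in the size of the rise. Each dismutase is of another compartment, so gene and compartment cannot be told apart. Sod3 (chromosome 5, 52363804 to 52369738), the extracellular enzyme, had 64.9, 62.2, 58.8 and 58.9 FPKM in HA IP and 5.69, 5.54, 5.02 and 5.83 FPKM in input. It rose by 4.28 (SE 0.08, adjusted p = 2.1e-10). Sod1, the copper-zinc enzyme of the cytosol, had 778, 911, 939 and 675 FPKM in HA IP and 270, 266, 236 and 242 FPKM in input, and rose by 2.54 (SE 0.13). Sod2, the manganese enzyme of mitochondria, had 51.5, 52.5, 56.9 and 44.9 FPKM in HA IP and 41.5, 40.5, 42.0 and 44.3 FPKM in input, so that animal 595 showed almost no difference on the deposited scale. Sod2 rose by 1.13 (SE 0.09). The ratio of Sod1 to Sod2 was 2.66-fold higher in HA IP and that of Sod3 to Sod1 3.43-fold higher, each without overlap. Cat (chromosome 2, 103453904 to 103485153), the peroxisomal catalase gene whose product breaks down hydrogen peroxide without glutathione, had 136, 130, 118 and 129 FPKM in HA IP and 16.6, 16.6, 17.5 and 15.6 FPKM in input. It rose by 3.79 (SE 0.07, adjusted p = 2.2e-10).

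Nqo1, a quinone reductase and classical NRF2 target, had 17.1, 19.9, 15.8 and 16.2 FPKM in HA IP and 2.34, 2.89, 2.17 and 2.09 FPKM in input. It rose by 3.64 (SE 0.12), with 3.61 to 3.67 in the single animals. Of the heme oxygenases, which open heme to biliverdin, the inducible Hmox1 had 11.9, 12.7, 15.5 and 9.16 FPKM in HA IP and 3.06, 2.52, 5.08 and 2.17 FPKM in input. Animal 581 was the highest and animal 595 the lowest in both kinds of library, and the log2 fold change was 2.78 (SE 0.25, adjusted p = 2.3e-06). The constitutive Hmox2 had 15.9, 17.3, 17.5 and 14.7 FPKM in HA IP and 19.7, 20.3, 21.4 and 18.5 FPKM in input. It was called higher after scaling (0.55, SE 0.08) and lower on the deposited scale (-0.29, adjusted p = 0.00584). The ratio of Hmox1 to Hmox2 was 4.88-fold higher in HA IP, without overlap.

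Set beside the astrocyte markers, 11 of the 38 genes reached the fold change of the lowest of the 14 markers, Aqp4 at 2.97. These were Gstm1, Gstk1, Prdx6, Sod3, Gstm5, Gstt3, Cat, Nqo1, Nfe2l2, Prdx1 and Gstt1. Gstm1 and Gstk1 also lay above the marker median of 4.56. The share of all genes tested that reached these levels was not computed, so the counts are only a description. Differences between genes in log2 fold change hardly depend on the scaling. The 11 include transferases, peroxide-removing enzymes and the extracellular dismutase, and none of the genes of glutathione synthesis and reduction.

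Single animals differed for some of these genes in both of their libraries. A difference of at least 0.4 on the log2 scale from the mean of the other 3 animals, in the same direction in HA IP and input, was counted; this threshold was set after the values were seen. In animal 581 Srxn1 (0.69 in HA IP and 0.77 in input) and Hmox1 (0.43 and 0.95) were higher by this measure and Gstt1 (-0.42 and -0.45) was lower, against 3.14% and 2.77% of all genes. Gsr came close, at 0.54 and 0.37. Slc7a11 was at -0.92 in HA IP of that animal but at -0.21 in its input. Of the 90 other pathway genes tested, Maff (3.47 and 1.28) and Txnrd3 (0.79 and 0.69) were higher in animal 581. Cth, Gstm2, Mgst1 and Sepp1 were lower in it. Pathway genes also passed this threshold in the other animals. Tfrc and Maff were lower in animal 579, and Mgst1 was higher in animal 580. In animal 595 Gstm6 was higher and Maff lower. The shares of all genes given in this paragraph apply to them too. Gfap and Olig2 stood high in HA IP of animal 581, as given above. In animal 580 Gstt2 (0.83 and 0.43) and Gstt3 (0.66 and 0.54) were higher, against 1.6% of all genes, and none of the 38 was lower, against 1.2%. In animal 579 Slc7a11 (0.67 and 0.43) was higher, against 0.865%, and none was lower, against 0.891%. In animal 595 Gstt3 (-0.76 and -0.56) and Hmox1 (-0.58 and -0.58) were lower, against 1.54%, and none was higher, against 1.78%. The counts per animal and direction were 0 to 2 of the 38, and they are not read as a trait of these genes. Each animal is a single case, and no test was made.

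**Figure D4:**
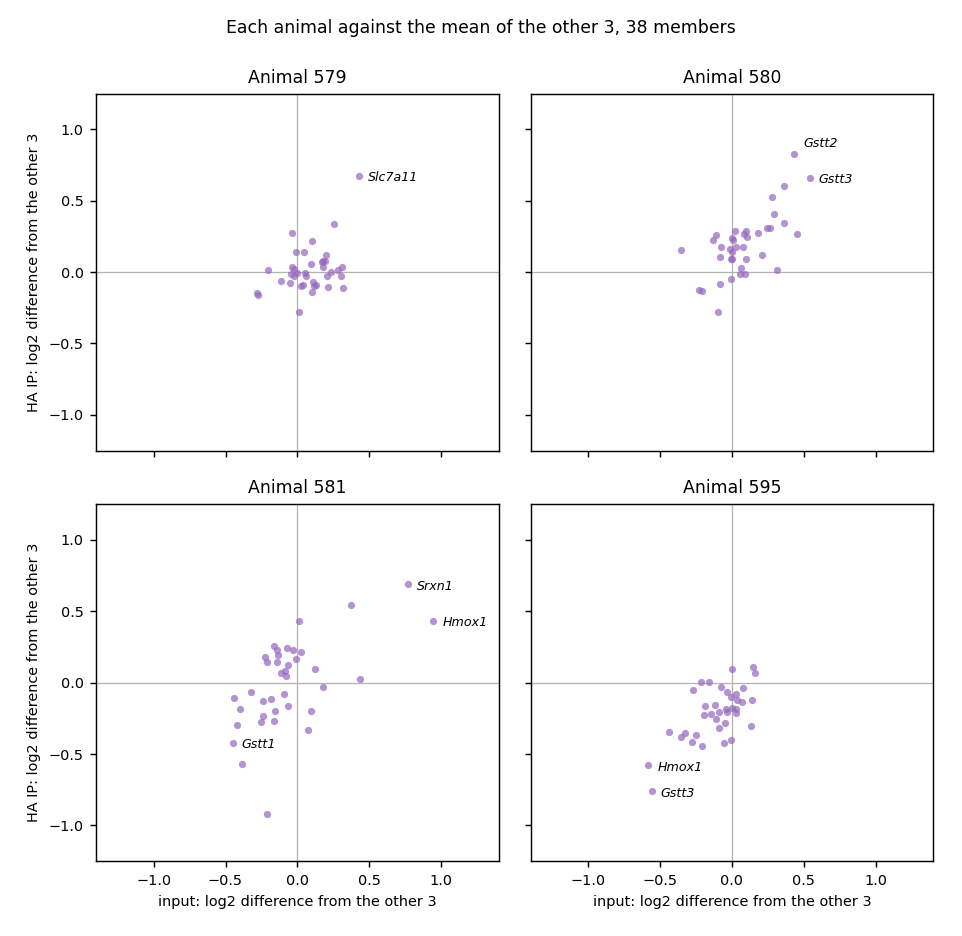
Log2 difference of each animal from the mean of the other 3 in input (horizontal) and in HA IP (vertical), after TMM scaling, 1 panel per animal and 1 point per gene; genes at least 0.4 from zero in the same direction in both libraries are named. Srxn1 and Hmox1 stand at the upper right in animal 581.

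The other genes of the pathway were taken from 7 lists with 99 entries, of which 90 reached the filter. Of these, 56 were higher and 21 lower in HA IP, and 13 did not pass, with a median log2 fold change of 0.72. Among all genes tested, 42.1% were called higher and 41.1% lower. On the deposited scale 35 were higher and 38 lower (median -0.12), against 23.3% and 61.6% of all genes tested. The same shares apply to each list below, whose counts are given as a description.

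Genes that supply NADPH, the reductant of glutathione and thioredoxin reductases, moved most uniformly of the 7 lists: 12 of 13 rose and 1 fell, with a median of 2.33, and 11 rose on the deposited scale. Idh2, the mitochondrial isocitrate dehydrogenase gene, rose by 4.61 (SE 0.06), from 15.5 ± 0.678 to 212 ± 9.53 FPKM, and was second to Aldh1l1, which also makes NADPH. Aldh1l1 is counted here although its regulatory sequence drives the Cre recombinase and it is among the astrocyte markers above. Its rise is thus no separate result of this list. Me3, a mitochondrial malic enzyme gene, changed by -0.43 (SE 0.10).

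Of 19 other genes of glutathione turnover and cysteine supply, 11 rose, 5 fell and 3 did not pass (median 0.83), with 8 rising and 8 falling on the deposited scale. Cbs, which starts the route from homocysteine to cysteine, rose by 4.69 (SE 0.13), and Oplah, the oxoprolinase of the gamma-glutamyl cycle, by 4.35 (SE 0.09). Slc1a1, the transporter by which neurons take up cysteine, fell by 3.32 on the log2 scale (SE 0.12), from 34.5 ± 2.11 to 1.88 ± 0.407 FPKM, and Chac1, which degrades glutathione, fell by 2.54 (SE 0.25).

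Of 11 other peroxidase and transferase genes tested, 6 rose and 4 fell (median 0.89). Mgst1, a microsomal transferase gene, rose by 4.22 (SE 0.25) and Gstm6 was second, while Gdap1 fell by 2.95 on the log2 scale (SE 0.20) and Mgst3 by 1.62 (SE 0.16). Of 18 genes of thiol and methionine sulfoxide reduction, 13 rose and 3 fell (median 0.96; 8 and 5 on the deposited scale). Nxn, which encodes nucleoredoxin, rose by 3.85 (SE 0.10) and Ccs, the copper chaperone of Sod1, by 2.73 (SE 0.07). The methionine sulfoxide reductase genes Msrb3 and Msra fell by 2.67 (SE 0.19) and 0.94 (SE 0.11) on the log2 scale.

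The remaining lists were mixed and had medians below the scale shift. Of 10 genes of selenoprotein supply 6 rose and 2 fell (median 0.50). On the deposited scale 1 rose and 7 fell, where 23.3% of all genes tested were higher and 61.6% lower. Sepp1, the secreted selenium carrier, rose on both scales (2.43, SE 0.19), while the selenoprotein gene Sepw1 changed by -1.31 (SE 0.15) and Sepsecs, of selenocysteine synthesis, by -0.96 (SE 0.16). Secisbp2, which recodes the stop codon to selenocysteine, had 0.77 (SE 0.09) after scaling and -0.07 on the deposited scale. Of 8 heme and iron genes 4 rose and 2 fell (median 0.40; 1 and 4 on the deposited scale). Blvrb, a biliverdin reductase gene, rose by 3.15 (SE 0.14), and the transferrin receptor gene Tfrc had 0.85 (SE 0.24) after scaling and 0.01 on the deposited scale. Fth1, the ferritin heavy chain gene, changed by -1.70 (SE 0.14), and the iron exporter gene Slc40a1 by -0.87 (SE 0.35). The Slc40a1 call was lost with any 1 input library left out (adjusted p = 0.0538 to 0.097). It was also lost without the filter (adjusted p = 0.0613), without animal 580 (0.101) and without animal 595 (0.0751). The same held without HA IP of 595 (0.0569) and without HA IP of 580 and 595 together (0.0619).

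Of 11 partners and regulators of NRF2, 4 rose, 4 fell and 3 did not pass (median 0.24). On the deposited scale 1 rose and 9 fell, where 23.3% of all genes tested were higher and 61.6% lower. Sqstm1, whose product binds KEAP1, rose on both scales (1.38, SE 0.08), and the related factor gene Nfe2l1 had 0.55 (SE 0.09) after scaling and -0.28 on the deposited scale. Mafg, a small Maf partner, changed by -0.68 (SE 0.10) and the repressor gene Bach2 by -0.57 (SE 0.11). Maff, another small Maf gene, had 0.902, 0.816, 11.2 and 1.05 FPKM in HA IP and 0.797, 0.896, 2.15 and 0.716 FPKM in input, with animal 581 far above the others. Its log2 fold change of 1.49 (SE 0.74) did not pass (adjusted p = 0.0863), but it was called higher with animals as a block (adjusted p = 0.00677) and without animal 581 (0.89, adjusted p = 0.000749). It was named after its values were seen. The log2 fold change of Nfe2l2, 3.18, was larger in size than that of any of these 11 genes or of Keap1.

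**Figure D5:**
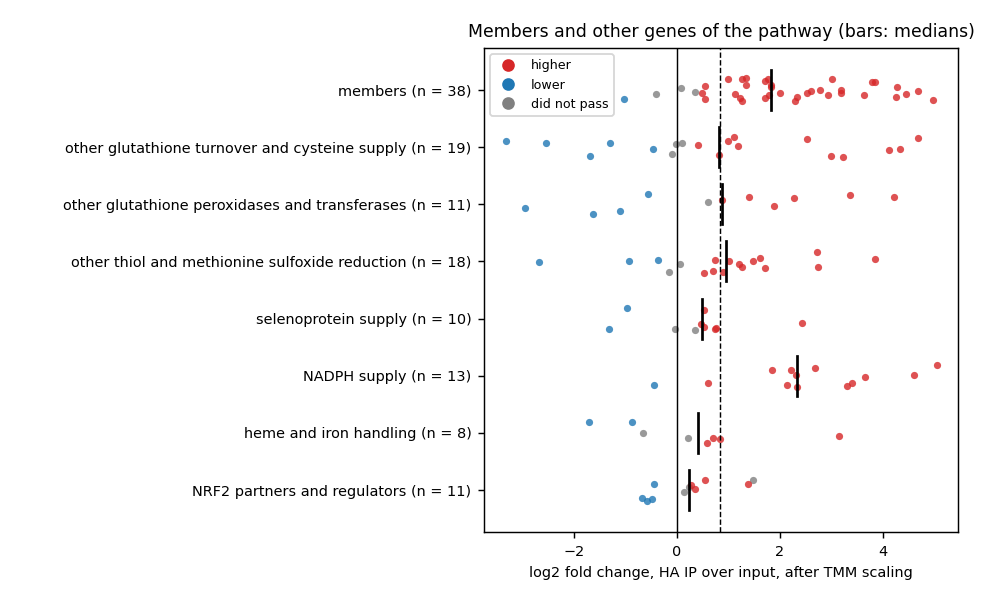
Log2 fold change of HA IP over input (limma, after TMM scaling) for the 38 genes and for each list of other pathway genes that reached the filter; points are genes (red higher, blue lower, grey not past the test; vertical spread only for legibility), bars are medians and the dashed line at 0.84 marks the shift between the 2 scales. The medians of the 38 genes (1.83) and of NADPH supply (2.33) lie well to the right of that line.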

How the data were processed

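Polyadenylated RNA was sequenced as paired-end stranded libraries made from 100 ng of RNA, per the labels' protocols. Tools named in the submitters' processing notes are STAR, HTSeq and bcl2fastq, with build mm10; the annotation and strand setting of the counting: not given in the sources used here. Neither labels nor headers name the unit; the deposited values were read as FPKM made by the authors, since all 142235 values above 0 turn into whole fragments, within 0.001, once 1 length is fitted for each gene and 1 total for each library. The fragments recovered so gave depth and the filter, and the recovery was tested on simulated data.

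HA IP was compared with input with limma 3.58.1 (R 4.3.3, trend option) on log2(FPKM + 0.1), after division by unweighted TMM factors (0.3 and 0.05 trimmed). Genes entered if at least 4 libraries had 0.246 CPM and all together 15 fragments. Two-sided p-values were adjusted by Benjamini-Hochberg across the 15605 genes, with 0.05 as threshold. The pseudocount understates changes of low genes. A count test was not used because the values are FPKM. That libraries came from separate animals rests on the shared numbers in their titles.

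Numbers mark animals: deviations from group means correlated by 0.22 to 0.40 for libraries of 1 number and at most 0.11 otherwise. The main comparison has no animal block, and the block was an alternative. Every one of the 38 genes is reported; of each pathway list the 2 largest rises and the 2 largest falls that passed the test with the same direction in all 4 animals are named, any other gene by choice after its values were seen. The 38 genes, lists and tests were chosen with earlier results of these data known.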

Additional observations from a re-analysis of the deposited data

Results flagged for a closer look

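Among the 76 sets of 4 libraries (38 genes in HA IP and in input), 4 held a library whose distance to its nearest neighbour exceeded Dixon's 95% critical share of the range of the set; chance gives about 1 in 20. Srxn1 was flagged in both kinds of library of animal 581, at 27.18 FPKM in HA IP against 15.4 to 17.0 in the others and at 66.23 FPKM in input against 37.6 to 39.8. Prdx4 stood at 39.84 FPKM in HA IP of animal 580 against 28.5 to 29.1, and Gsta4 at 42.68 FPKM in input of animal 579 against 36.1 to 37.0. No explanation was tested.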

How the results depend on the processing

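Of 21 alternatives (scaling, pseudocount, filter, intensity trend, animal block, each animal or library left out and, chosen after seeing the data, the HA IP libraries of animals 580 and 595 left out together), 31 of the 38 genes kept direction and call under all, and 35 under all but the deposited scale. With no scaling, 3643 of all 15605 genes tested were higher and 9613 lower. Of the 38 genes 30 were then higher and 7 lower, and of the 90 other pathway genes tested 35 and 38. On that scale Gclc had -0.34, Gpx4 -0.49, Txn1 -0.75, Hmox2 -0.29 and Keap1 -0.27. Txn1 never passed otherwise, and had -0.006 with median ratio scaling and -0.031 to 0.179 with an animal or a library left out, below 0 without animal 581 and without the input of animal 595. The number of the 38 genes called lower was 1, and 2 with the replicate block, where Srxn1 joined. Leaving out animals or single libraries gave 1 to 2, with 2 without animal 581 and without its HA IP library. Of all genes tested, 6533 of 15663 were lower without animal 581, and 6566 of 15805 without its HA IP library. With the block 35 genes were higher, Gpx4 having joined, and no other call among the 38 changed. Gpx4 also passed as higher without animal 580 (adjusted p = 0.042), without its input library (adjusted p = 0.0163) and without the HA IP library of animal 595 (adjusted p = 0.0287). Within-library ratios of the 9 pairs kept their direction with each animal left out in turn, an alternative chosen after seeing the data. Since HA IP and input did not overlap in any of the 9 ratios, this could not come out otherwise. The pairs and their numerators were also chosen with the values known. The cause of these changes was not tested. The lowest fragment number behind a value of the 38 genes was 53, for Gstt2.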
